A study of Mus musculus with 40 samples.

Results

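The genes described here are the cadherins with Cdh symbols, desmosomal cadherins, Fat cadherins and non-clustered protocadherins of the mouse mammary gland. They were chosen by symbol alone, as every gene named Cdh, Dsg, Dsc, Pcdh or Fat followed by a number, and 47 of the 26132 genes in the 2 count tables matched: 23 Cdh genes, 11 Pcdh genes, 6 desmogleins, 3 desmocollins and 4 Fat genes. RNA was sequenced from luminal cells, basal cells, adipocytes and fibroblasts of the 3rd and 4th mammary glands of wildtype virgin female FVB/N mice, at puberty (34 to 36 days of age, pools of 4 mice) and in adults (14 to 16 weeks of age, pools of 2 or 3 mice) in proestrus, estrus, metestrus or diestrus. Each of the 20 combinations of cell type and stage had 2 libraries, which makes 8 pubertal and 32 adult libraries. Adipocytes (labelled fat) were the floating fraction after digestion and centrifugation, without a sort, while luminal, basal and fibroblast (labelled stromal) cells were sorted on EpCAM and CD49f after exclusion of cells with CD45, CD31 or Ter119. The 2 pubertal pools of a cell type came from litters of different ages within that range, and the 2 adult pools of a stage held mice judged early or late in it or grouped by cell yield, so p-values measure the spread between such pools. Pubertal and adult libraries were sequenced in different runs, so age and run cannot be told apart.

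Cadherins are calcium-dependent adhesion receptors of the cell surface. E-cadherin and its relatives bind the same cadherin on a neighbouring cell and are anchored to actin through catenins, whereas desmogleins and desmocollins build desmosomes and are anchored to keratin filaments through plakoglobin, plakophilins and desmoplakin. In the mammary gland E-cadherin joins luminal cells to each other, P-cadherin is a classical marker of the basal, myoepithelial layer, and VE-cadherin marks endothelium. Fat cadherins are very large relatives with roles in polarity and growth control, and protocadherins are mostly known from neurons.

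The libraries held 8991222 to 22760563 counts. Marker lists matched the labels. In adults 10 of 10 luminal markers were higher in luminal cells than in the mean of the other 3 cell types. The same held for 8 of 8 basal markers in basal cells, 7 of 7 adipocyte markers in adipocytes and 7 of 7 fibroblast markers in fibroblasts. Adult adipocytes were also higher in 7 of 7 fibroblast (median log2 fold change 4.12), 6 of 6 leukocyte, 5 of 6 pericyte and 5 of 5 skeletal muscle markers. Of 10 luminal markers 4 were higher and 5 lower there, and of 8 basal markers 2 were higher and 3 lower. Adult fibroblasts were also higher in 6 of 6 pericyte markers. All 7 endothelial markers, none of them at 0, were also higher in adult adipocytes and in adult fibroblasts, with summed levels of 388.3 to 1251 CPM (counts scaled to library size) and 774.0 to 2043 CPM, against 15.2 to 50.5 CPM in luminal and 6.53 to 26.01 CPM in basal libraries. A set of 3 adipocyte libraries stood apart by 8 epidermal markers, 7 of them in the tables: summed epidermal levels were 1877 CPM in diestrus replicate 2, 1047 CPM in puberty replicate 2 and 258.9 CPM in proestrus replicate 1, against 15.8 to 39.5 CPM in the other 7 adipocyte libraries. In bulk samples such as these, fewer cells of a type and less RNA per cell cannot be told apart.

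Of the 47 members, 38 passed the filter on low counts in at least 1 comparison. By adult mean CPM, 5 of these were highest in luminal and 7 in basal cells, while 9 were highest in adipocytes and 17 in fibroblasts. The adipocyte group includes Dsc1, Dsc3, Dsg1a, Dsg1b and Dsg3, whose adult adipocyte medians were at most 0.90 CPM. Their means there rested mostly on diestrus replicate 2, with 37.1, 398.0, 137.7, 60.4 and 178.8 CPM. The other 9 (Cdh7, Cdh12, Cdh15, Cdh16, Cdh20, Cdh22, Cdh26, Dsg1c and Dsg4) were tested nowhere, and none reached 1.5 CPM in any library. On the length-corrected RPKM scale (CPM per kilobase of exon), which allows levels to be compared between genes, Cdh1 gave 80.4% of the summed member RPKM in adult luminal cells and 48.4% in adult basal cells, where Cdh3 gave 27.3%. Cdh5 gave 47.3% in adult adipocytes and 48.0% in adult fibroblasts.

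**Figure D1:**
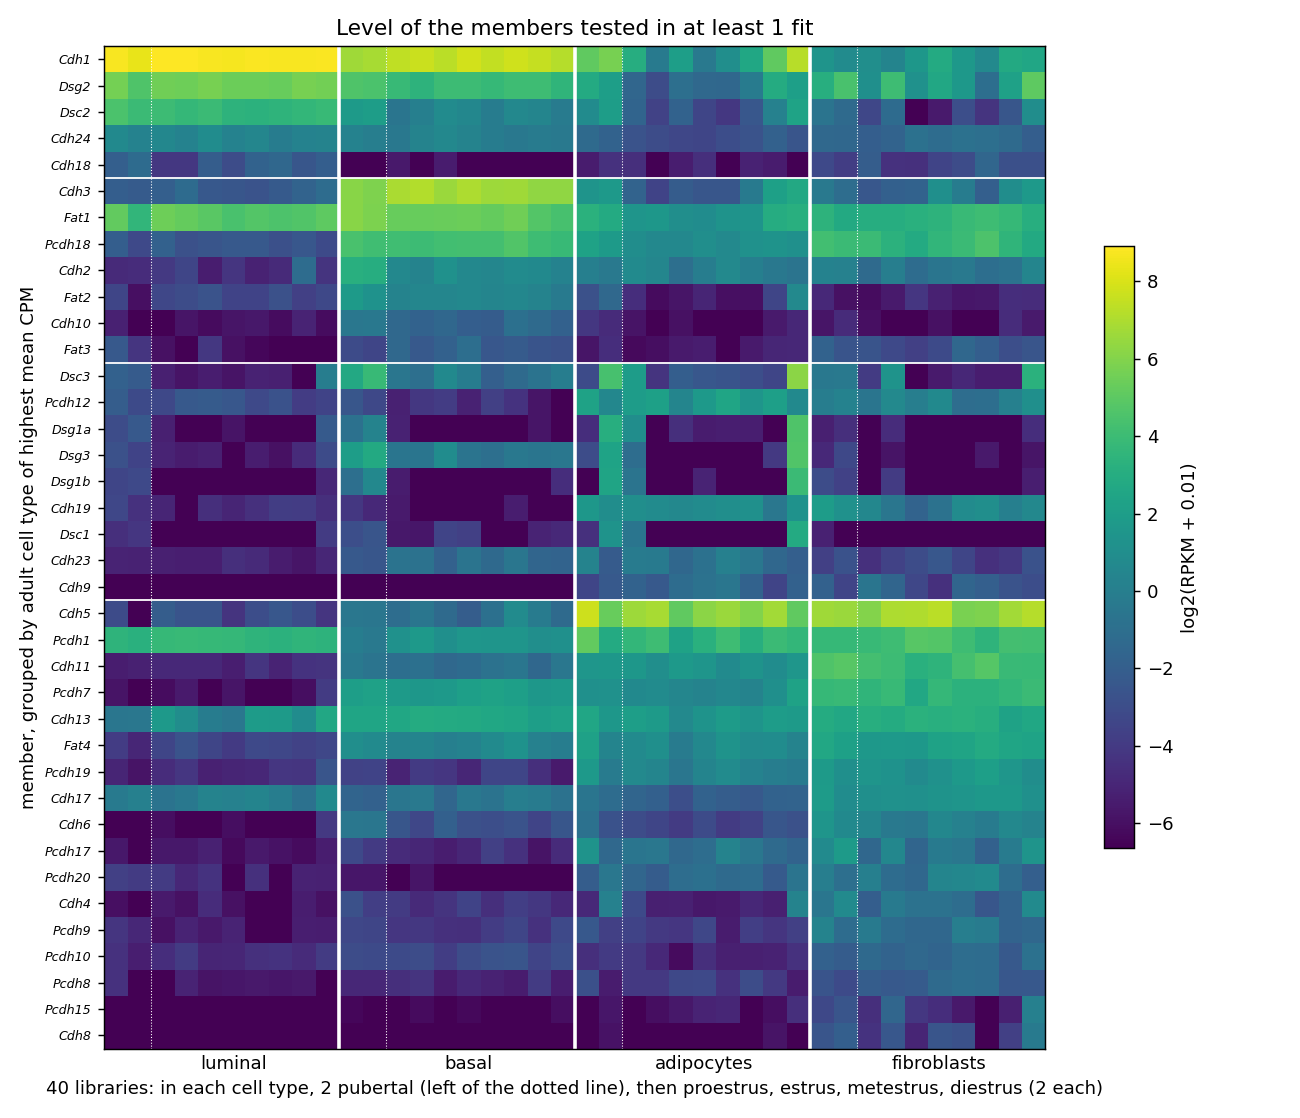
Levels of the 38 tested members, as log2(RPKM + 0.01), with members in rows grouped by the adult cell type of highest mean CPM and the 40 libraries in columns, each cell type with its 2 pubertal libraries first. Cdh1 is bright across luminal and basal cells, Cdh3 in basal cells, and Cdh5 in adipocytes and fibroblasts, while Dsg1a, Dsg1b, Dsg3 and Dsc1 are bright in adipocytes only in puberty replicate 2, diestrus replicate 2 and, less so, proestrus replicate 1.

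The members divided unevenly between the adult cell types. Against the mean of the other 3 types, 8 of 38 members were higher and 18 lower in luminal cells, where 38.0% of all tested genes were higher and 35.7% lower. In basal cells 17 of 38 were higher and 10 lower, against 39.7% and 34.6% of all tested genes. In adipocytes 14 were higher and 11 lower, against 43.9% and 36.6% of all tested genes. In fibroblasts 24 of 38 were higher and 7 lower, against 39.9% and 37.7% of all tested genes. The members' median log2 fold change was -2.63 for luminal, 0.57 for basal, 0.33 for adipocyte and 2.51 for fibroblast libraries, with medians of -0.04, -0.05, 0.10 and -0.02 over all tested genes. In at least 1 whole adult cell type 4 members had no count (Cdh8, Cdh9, Dsc1 and Pcdh15), and with these set to a floor of 3 counts per cell type the members' medians were -2.82, 0.20, 0.33 and 2.51. Calls are edgeR quasi-likelihood tests at a Benjamini-Hochberg adjusted p under 0.05, and each fold change against 3 types is against the mean of their log2 levels.

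By fold change against the other cell types, luminal cells were led by Dsc2, Cdh1 and Dsg2. Cdh1 (E-cadherin, chr8:106603351-106670246 on the plus strand of GRCm38) had 1920, 1988 and 2188 CPM as the lowest, median and highest of the 8 adult luminal libraries, against 671.0, 831.8 and 1049 CPM in the 8 adult basal libraries. The luminal and basal ranges of Cdh1 did not overlap, and both lay far above the fibroblast range of 5.75 to 32.8 CPM. The log2 fold change of luminal cells against the other 3 types was 4.69 (SE 0.28, adjusted p = 4.21e-12), and against basal cells alone it was 1.25 (SE 0.38, adjusted p = 0.00591).

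Both broadly expressed desmosomal cadherins followed Cdh1. Dsg2 (desmoglein 2, the desmoglein of simple epithelia) ranged from 329.2 to 432.4 CPM with a median of 373.5 in adult luminal libraries, against 89.2 to 140.0 CPM with a median of 125.3 in adult basal libraries. Dsc2 (desmocollin 2) ranged from 52.5 to 84.8 CPM with a median of 67.1 in luminal libraries, against 3.42 to 9.67 CPM with a median of 6.26 in basal libraries. Neither gene's luminal libraries overlapped its basal libraries. Against the other 3 types the luminal log2 fold changes were 5.14 for Dsc2 (SE 0.30, adjusted p = 1.9e-12) and 3.49 for Dsg2 (SE 0.30, adjusted p = 1.36e-09). Exons of Dsg2 share 330 bases with an antisense gene (Gm16090), and whether counting used the strand is not given in the sources used here.

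The 2 remaining members that were highest in luminal cells had low levels. Cdh24, a type II cadherin, averaged 4.54 ± 0.96 CPM in adult luminal cells, against 3.46 ± 0.98 CPM in basal cells, 0.50 ± 0.21 CPM in adipocytes and 1.41 ± 0.46 CPM in fibroblasts (SD, n = 8 each), and its log2 fold change against the 3 types was 1.80 (SE 0.13, adjusted p = 7.64e-11). Cdh18, another type II cadherin, averaged 0.86 ± 0.52 CPM in luminal cells and was at 0 in 6 of 8 adult basal libraries. Fat1 and Pcdh1 were also called higher in luminal cells than in the mean of the other types, by log2 fold changes of 1.43 and 0.56, although Fat1 was higher still in basal cells and Pcdh1 in fibroblasts.

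Basal cells were set apart by Cdh3. Cdh3 (P-cadherin, chr8:106510891-106557297, plus strand, next to Cdh1) ranged from 344.3 to 606.8 CPM with a median of 441.0 in adult basal libraries, against 0.63 to 1.93 CPM in luminal libraries, 0.76 to 14.1 CPM in fibroblast libraries and 0.34 to 28.9 CPM in adipocyte libraries. Every basal library lay far above every library of the other adult cell types. Its log2 fold change in basal cells against the other 3 types was 7.74 (SE 0.22, adjusted p = 6.66e-17), and in luminal against basal cells it was -8.68 (SE 0.37, adjusted p = 2e-14).

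Other members were also higher in basal cells than in the mean of the other types. Fat1, the most abundant Fat cadherin, had 321.8, 614.4 and 725.7 CPM as the lowest, median and highest adult basal library, against 334.8, 449.6 and 680.7 CPM in luminal libraries, and these 2 ranges overlapped almost fully. Its log2 fold change in luminal against basal cells was small, -0.28 (SE 0.10, adjusted p = 0.0199), and 487 of its exon bases are shared with an antisense gene (Gm2366). Pcdh18, a protocadherin of the delta group, ranged from 76.4 to 137.3 CPM with a median of 95.9 in basal libraries, against 37.4 to 124.5 CPM in fibroblast libraries and 0.55 to 1.49 CPM in luminal libraries. Cdh2 (N-cadherin, the main cadherin of neurons and many mesenchymal cells) ranged from 9.44 to 18.8 CPM in basal libraries, against 0.11 to 3.53 CPM in luminal libraries, with a log2 fold change in basal cells of 2.20 (SE 0.24, adjusted p = 4.91e-08) against the other 3 types.

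The basal cells were also higher in Cdh10, Fat2, Fat3 and Dsg3. Cdh10, a type II cadherin known from brain, had 2.22 to 5.24 CPM in adult basal libraries and no more than 0.30 CPM in any library of another adult cell type, with a log2 fold change of 6.10 (SE 0.32, adjusted p = 2.46e-12). Fat2 ranged from 11.9 to 21.98 CPM in basal libraries, with a log2 fold change of 5.10 (SE 0.30, adjusted p = 2.79e-12), and only adipocyte diestrus replicate 2 of the other adult libraries reached that range, at 23.3 CPM. Fat3 ranged from 2.84 to 10.54 CPM in basal libraries and 1.44 to 7.74 CPM in fibroblast libraries, against at most 1.04 CPM in luminal libraries. Dsg3 (desmoglein 3, known from the basal layers of stratified epithelium) was called higher in basal cells (adjusted p = 5.94e-06), at 3.49 to 13.01 CPM. Its mean was nevertheless higher in adipocytes through a single library of 178.8 CPM, diestrus replicate 2. Dsg3 was at 0 in 5 of 8 adult adipocyte and 5 of 8 adult fibroblast libraries, so its fitted fold change depends on the prior count and is not given.

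**Figure D2:**
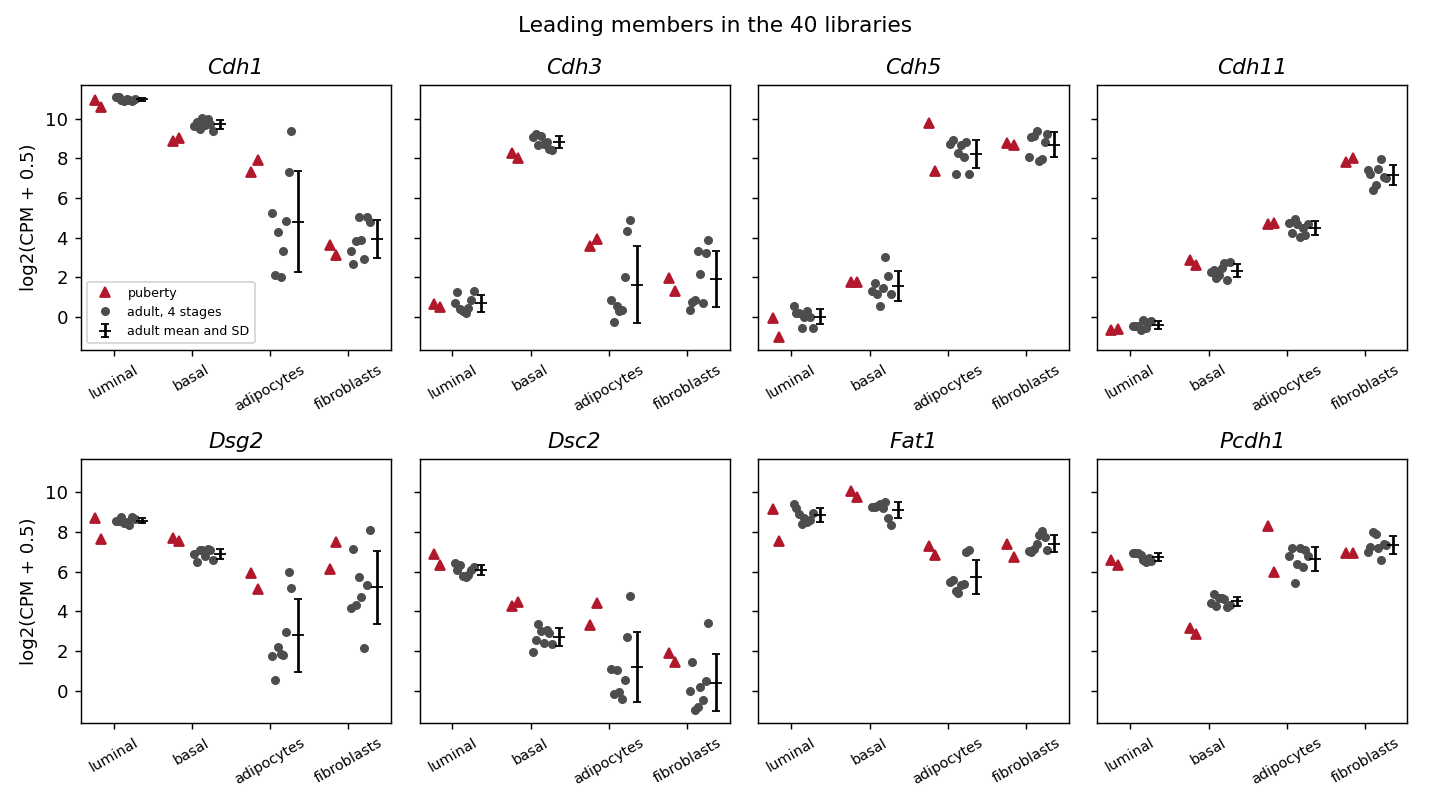
Levels of 8 members as log2(CPM + 0.5) in the 40 libraries, by cell type, with the 2 pubertal libraries as triangles left of the 8 adult libraries as circles and the adult mean with its SD. Cdh1, Dsg2 and Dsc2 are highest in luminal cells, Cdh3 in basal cells, Cdh11 in fibroblasts and Cdh5 in adipocytes and fibroblasts, and the adult adipocyte libraries spread widest for Cdh1, Cdh3, Dsg2 and Dsc2.

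Set directly against each other, the 2 adult epithelial layers differed in most members. In luminal against basal cells 10 of 38 members were higher and 21 lower, where 35.3% of all tested genes were higher and 38.3% lower, and the median log2 fold change was -1.55 over the members and -0.04 over all genes. The members lower in luminal cells included 6 protocadherins and 9 Cdh genes among those lower in luminal cells, with Pcdh7 at 0 to 0.60 CPM in luminal libraries against 31.6 to 51.6 CPM in basal libraries and Fat4, a partner of Dachsous 1 in planar polarity, at 0.91 to 2.53 CPM against 16.6 to 42.4 CPM. The log2 fold changes were -9.42 (SE 0.35) for Pcdh7 and -3.89 (SE 0.17) for Fat4. Pcdh1 went the other way, with 87.8 to 122.9 CPM in luminal libraries, against 18.3 to 29.3 CPM in basal libraries, a log2 fold change of 2.25 (SE 0.15, adjusted p = 2.76e-11).

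The 9 desmosomal cadherins lie in a single cluster on chromosome 18, in the order Dsc3, Dsc2, Dsc1, Dsg1c, Dsg1a, Dsg1b, Dsg4, Dsg3 and Dsg2, and they did not move as a block. Dsc2 and Dsg2 were called higher in luminal than in basal cells, while Dsc3 and Dsg3, known from stratified epithelium, were called lower, with log2 fold changes of -4.26 (SE 1.46, adjusted p = 0.0127) and -5.37 (SE 0.98, adjusted p = 8.72e-05). Dsc1, Dsg1a and Dsg1b, which belong to the upper layers of the epidermis, stayed under 0.5 CPM in all 8 adult basal libraries and, apart from Dsg1a at 1.15 CPM in diestrus replicate 2, in all 8 adult luminal libraries. Reads of Dsg1a, Dsg1b and Dsg1c may be split among these near-identical copies.

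Partners of the cadherins were compared between the 2 layers from lists of other junction genes. Of the adherens junction plaque genes 3 of 10 tested were higher and 5 lower in luminal than in basal cells (median log2 fold change -0.27), with the actin linker Afdn at 1.83, Arvcf at 0.80, Pkp4 at -3.13 and Ctnnd2 at -1.76. Of the desmosome plaque genes 3 of 8 were higher and 2 lower (median -0.14), with Pkp2, the plakophilin of simple epithelia, at 6.21, the cornified envelope gene Evpl at 5.44, Ppl at 2.33 and Pkp1, the plakophilin of stratified epithelium, at -3.56. Each nectin differed, with Nectin4 and Nectin2 higher in luminal cells at 6.86 and 2.12 and Nectin3 and Nectin1 lower at -3.26 and -1.48.

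Among Dachsous, Celsr, calsyntenin and cadherin-related genes 2 of 9 tested were higher and 6 lower in luminal than in basal cells (median log2 fold change -1.79). Dchs1, the ligand of Fat4, had a log2 fold change of -8.05, Fjx1 -5.21, Clstn3 -7.15 and Clstn1 -1.51. Among 6 transcription factors known to repress the E-cadherin gene none was higher and 4 were lower (median -3.27). Snai2 averaged 0.07 CPM in luminal cells and 47.6 CPM in basal cells, where Cdh1 was also abundant, and Twist1 was at 0 in all 8 adult luminal libraries.

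Fibroblasts held the widest range of members. Cdh11 (OB-cadherin, a mesenchymal cadherin) ranged from 82.7 to 250.0 CPM with a median of 140.2 in adult fibroblast libraries, against 15.6 to 29.7 CPM in adipocyte, 3.18 to 6.29 CPM in basal and 0.13 to 0.39 CPM in luminal libraries. The 4 cell types did not overlap in Cdh11, and its log2 fold change in fibroblasts against the other types was 5.58 (SE 0.11, adjusted p = 5.57e-20). Pcdh7 ranged from 67.9 to 165.7 CPM with a median of 129.3 in fibroblasts, and Pcdh1 from 96.0 to 259.8 CPM with a median of 156.6, which overlapped its adipocyte range of 43.1 to 147.9 CPM. Exons of Pcdh7 share 2235 bases with an antisense gene (4932441J04Rik).

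The other fibroblast members were lower. Cdh13 (T-cadherin, which is anchored by a lipid tail and lacks a cytoplasmic domain) averaged 89.96 ± 19.998 CPM, Fat4 81.8 ± 24.8 CPM, Pcdh19 28.6 ± 8.78 CPM, Pcdh17 12.2 ± 10.3 CPM, Cdh17 11.47 ± 1.81 CPM and Cdh6 10.2 ± 2.81 CPM (SD, n = 8 each). Pcdh10, Pcdh20, Pcdh15, Cdh4 and Pcdh9 averaged between 3.77 and 5.96 CPM, and Pcdh8 and Cdh8 1.32 and 1.37 CPM. All 13 of these were called higher in fibroblasts than in the mean of the other 3 types. Cdh8 was at 0 in every adult luminal and basal library, so its fitted fold change is not a bound and is not given (adjusted p = 0.000164), and the same holds for Pcdh15 (adjusted p = 0.00679), which was at 0 in all luminal libraries and reached 25.9 CPM in a single fibroblast library, diestrus replicate 2.

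The most abundant member of both stromal fractions was Cdh5 (VE-cadherin, the adhesion receptor of endothelial junctions, chr8:104101625-104144511, plus strand). It ranged from 145.8 to 483.3 CPM with a median of 359.1 in adult adipocyte libraries and from 230.4 to 668.0 CPM with a median of 488.8 in adult fibroblast libraries, against 0.17 to 0.96 CPM in luminal and 0.95 to 7.56 CPM in basal libraries. Both stromal fractions lay entirely above both epithelial types. The log2 fold changes against the other 3 types were 5.28 (SE 0.21, adjusted p = 3.67e-15) in adipocytes and 5.80 (SE 0.21, adjusted p = 7.95e-16) in fibroblasts. Pecam1, which encodes the CD31 used to exclude endothelial cells from the sort, had 299.3 to 954.6 CPM in adult fibroblast and 152.1 to 436.0 CPM in adult adipocyte libraries. The part of endothelial cells in the Cdh5 level was not tested.

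Adipocytes shared most of their members with fibroblasts. Pcdh12, a protocadherin known from endothelium, ranged from 8.22 to 34.8 CPM in adult adipocyte libraries, against 2.84 to 12.8 CPM in fibroblast libraries and at most 1.29 CPM in the epithelial libraries, with a log2 fold change of 4.50 (SE 0.22, adjusted p = 1.36e-13). Cdh19, a type II cadherin of glia and Schwann cells, ranged from 3.02 to 10.46 CPM in adipocytes and 1.28 to 8.92 CPM in fibroblasts and had a log2 fold change of 5.20 (SE 0.26, adjusted p = 1.07e-12) in adipocytes. All 5 nerve sheath markers were tested in adipocytes, where 4 were higher and 1 lower (median log2 fold change 1.86). In fibroblasts 3 were higher and 2 lower (median 2.96). Their summed levels were 158.5 to 296.5 CPM in adult adipocyte and 209.0 to 535.8 CPM in adult fibroblast libraries. Their part in the Cdh19 level was not tested. Cdh9 had 0.28 to 2.43 CPM in adipocytes and 0.12 to 2.30 CPM in fibroblasts and no count in any adult luminal or basal library (adjusted p = 4.22e-08 in adipocytes, with no fold change given).

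Epithelial cadherins were low but not absent in adipocytes, and their levels varied between libraries. Cdh1 had a median of 23.5 CPM in adult adipocyte libraries with a range of 3.50 to 675.5 CPM. It was called lower there than in the mean of the other 3 types, as were Dsg2, Cdh3, Fat2, Dsc2 and Fat1. Against fibroblasts alone, the adipocyte median was higher for Cdh1 (13.9 CPM in fibroblasts) and Dsc2 (1.23 against 0.56 CPM). It was alike for Fat2 (0.21 CPM in both) and lower for Dsg2, Cdh3 and Fat1. Dsc3 was called higher in adipocytes, with a log2 fold change of 2.89 (SE 1.21, adjusted p = 0.0334), at a median of only 0.90 CPM. Its mean of 52.9 ± 139.6 CPM (SD, n = 8) rested on the 398.0 CPM of diestrus replicate 2, and without the 3 libraries of high epidermal sums the log2 fold change was -0.61 (adjusted p = 0.682). Dsg1a, Dsg1b and Dsc1 were not called in adipocytes and were also high in that library, with 137.7, 60.4 and 37.1 CPM in that library and 0 as the lowest level among the others.

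The same cell types stood out in puberty. Of 35 members tested in the 8 pubertal libraries, 5 were higher and 18 lower in luminal cells than in the mean of the other 3 types (23.6% and 24.5% of all tested genes), and 11 were higher and 8 lower in basal cells (17.2% and 18.1%). In pubertal adipocytes 14 were higher and 4 lower (24.1% and 5.97% of all tested genes), and in pubertal fibroblasts 21 were higher and 7 lower (23.6% and 18.7%). Cdh3 was at 309.3 and 261.3 CPM in pubertal basal libraries, against 1.04 and 0.92 CPM in luminal libraries, 11.4 and 14.7 CPM in adipocyte libraries and 3.43 and 1.98 CPM in fibroblast libraries. Cdh11 was at 222.6 and 262.4 CPM in pubertal fibroblasts and reached 26.4 CPM at most in the other types. Dsg1a, Dsg1b and Dsg3 were called higher in pubertal adipocytes, but through replicate 2 alone, with 47.9, 21.04 and 35.9 CPM there against 0.18, 0 and 0.77 CPM in replicate 1. Without replicate 2 the log2 fold changes of Dsg1a and Dsg3 were -2.16 and -1.55, and Dsg1b had no count in the remaining adipocyte library, so that no fold change is given.

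In pubertal luminal against basal cells 5 members were higher and 15 lower of 35, where 18.3% and 18.9% of all tested genes were called. Cdh1 was at 1948 and 1532 CPM in luminal libraries, against 470.6 and 525.9 CPM in basal libraries, a log2 fold change of 1.81 (SE 0.35, adjusted p = 0.00451). Cdh2 stood at 0.21 and 0.23 CPM in luminal libraries, against 71.2 and 66.9 CPM in basal libraries, with a log2 fold change of -8.27 (SE 0.38, adjusted p = 1.72e-05). Counts of calls in the pubertal fits fell with a single library left out, to 11 from 19 members for basal cells without basal replicate 1 (12 without replicate 2), to 13 from 20 for luminal against basal cells without either basal replicate or luminal replicate 2, and to 18 from 28 for fibroblasts without either fibroblast replicate.

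Across the estrous cycle no luminal, basal or fibroblast member was called. Of 15 members tested in luminal cells none differed in any stage from the mean of the other 3 stages, where 0.471% of all tested genes did, or in any pair of stages, where 0.309% did. Of 23 members in basal cells none was called (1.22% and 0.0247% of all tested genes), and of 31 in fibroblasts none was called (0% of all tested genes in either kind of comparison). At an unadjusted p under 0.05, 2 or 3 members passed for each stage in luminal cells, where 1011 to 1703 of all 12306 genes did, 2 to 7 in basal cells, where 985 to 2995 of 12122 genes did, and 5 to 14 in fibroblasts, where 980 to 2715 of 13068 genes did. For single stages, in luminal cells, basal cells and fibroblasts, DESeq2 called 3, 3 and 11 members. With edgeR without the filter it was 12, 6 and 24, and with the joint adult fit 2, 1 and 9. The shares of all tested genes called under these settings are not given here, so these counts cannot be set against a background. With 1 library left out, calls appeared without luminal diestrus replicate 1 (1 member between pairs of stages), without basal proestrus replicate 1 (1 member), without basal estrus replicate 2 (2 members) and without fibroblast estrus replicate 2 (1 member, and 3 between pairs).

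Cdh1, the most abundant member in luminal cells by RPKM, stayed within a narrow range over the cycle. It was at 2169 and 2188 CPM in proestrus, 1958 and 1920 CPM in estrus, 2017 and 1956 CPM in metestrus, and 1931 and 2053 CPM in diestrus, with an adjusted p of at least 0.61 for each stage. Some members had 2 pools of a stage outside the range of all others without passing the adjusted threshold, and these are named after their values were seen. Luminal Cdh13 was at 10.45 and 7.87 CPM in estrus, against 21.03 to 70.5 CPM in the other stages (log2 fold change -2.05, SE 0.45, adjusted p = 0.14). Basal Fat1 was at 417.4 and 321.8 CPM in diestrus, against 595.4 to 725.7 CPM in the other stages (log2 fold change -0.81, SE 0.155, adjusted p = 0.574). Fibroblast Cdh11 was at 82.7 and 98.4 CPM in estrus, against 126.8 to 250.0 CPM in the other stages (log2 fold change -0.95, SE 0.19, adjusted p = 0.0795), and fibroblast Cdh5 was at 230.4 and 250.6 CPM in metestrus, against 270.3 to 668.0 CPM (log2 fold change -1.03, SE 0.28, adjusted p = 0.183).

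In adipocytes members were called in the cycle, and each of these calls was in diestrus. Diestrus, set against the average of the remaining stages, had 7 of 28 tested members higher and 1 lower, against 7.53% and 3.52% of all tested genes. Fat1 was at 124.8 and 137.8 CPM in diestrus, against 43.6 and 47.1 CPM in proestrus, 32.4 and 29.4 CPM in estrus, and 40.1 and 41.1 CPM in metestrus. Its diestrus libraries lay above all 6 others, with a log2 fold change of 1.75 (SE 0.09, adjusted p = 0.00562), and Fat1 was also the only member called between a pair of stages, diestrus against estrus (log2 fold change 2.01, SE 0.12, adjusted p = 0.0138, where 0.0801% of all tested genes were called higher).

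The other members that rose in diestrus adipocytes were mostly epithelial cadherins. Dsg2 was at 62.5 and 35.4 CPM in diestrus, against 0.95 to 7.38 CPM in the other stages (log2 fold change 3.88, SE 0.45, adjusted p = 0.0176). Cdh3 was at 19.7 and 28.9 CPM in diestrus, against 0.34 to 3.48 CPM (log2 fold change 4.38, SE 0.56, adjusted p = 0.0191). Cdh1 was at 160.5 and 675.5 CPM in diestrus, against 3.50 to 37.1 CPM (log2 fold change 4.65, SE 0.94, adjusted p = 0.0382). In each of these genes both diestrus libraries lay above all 6 libraries of the other stages.

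Dsc2 was at 5.98 and 27.1 CPM in diestrus adipocytes, against 0.25 to 1.62 CPM in the other stages (log2 fold change 4.26, SE 0.74, adjusted p = 0.0299), and Fat2 at 1.25 and 23.3 CPM, against 0.06 to 0.44 CPM (log2 fold change 6.16, SE 1.04, adjusted p = 0.0288). Pcdh7 was at 22.9 and 51.8 CPM in diestrus, against 12.95 to 18.8 CPM (log2 fold change 1.26, SE 0.26, adjusted p = 0.0405). Cdh23, which forms hair-cell tip links with Pcdh15 in the inner ear, was the only member that fell, to 6.10 and 4.21 CPM in diestrus, against 6.13 to 18.3 CPM (log2 fold change -1.22, SE 0.28, adjusted p = 0.0463), and its higher diestrus library lay just below the lowest of the others.

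Markers of other cell types moved in the same libraries. Summed luminal markers were at 1577 and 574.6 CPM in diestrus adipocytes, against 250.8 to 465.8 CPM in the other stages, and summed basal markers at 591.9 and 3299 CPM, against 133.9 to 406.3 CPM. Of the luminal markers 2 of 10 were called higher in diestrus, of the basal markers 2 of 8, of the desmosome plaque genes 6 of 8 and of the epidermal markers none of 6 tested, with median log2 fold changes of 1.66, 1.28, 4.66 and 5.96. Epidermal sums were 19.5 and 1877 CPM in the 2 diestrus libraries, and Dsc3, Dsg3 and Dsg1a followed them, with 0.46, 0.34 and 0 CPM in replicate 1 and 398.0, 178.8 and 137.7 CPM in replicate 2. The part of epithelial or epidermal cells in these results was not tested. Without the 3 libraries of high epidermal sums, diestrus replicate 1 is the sole diestrus library, so the spread comes from the other stages alone. The log2 fold changes in diestrus then were 1.68 for Fat1, 4.57 for Dsg2, 4.51 for Cdh3, 4.11 for Cdh1 and 3.26 for Dsc2. They were 0.57 for Pcdh7 and -0.93 for Cdh23.

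The diestrus calls were sensitive to single libraries. With 1 library left out in turn, the 8 members called became 3 without proestrus replicate 1, 0 without proestrus replicate 2 or metestrus replicate 1, 1 without estrus replicate 1, estrus replicate 2 or metestrus replicate 2, 4 without diestrus replicate 2 and 12 without diestrus replicate 1. A block for the replicate number left 1 member called, and 0 between pairs of stages.

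**Figure D3:**
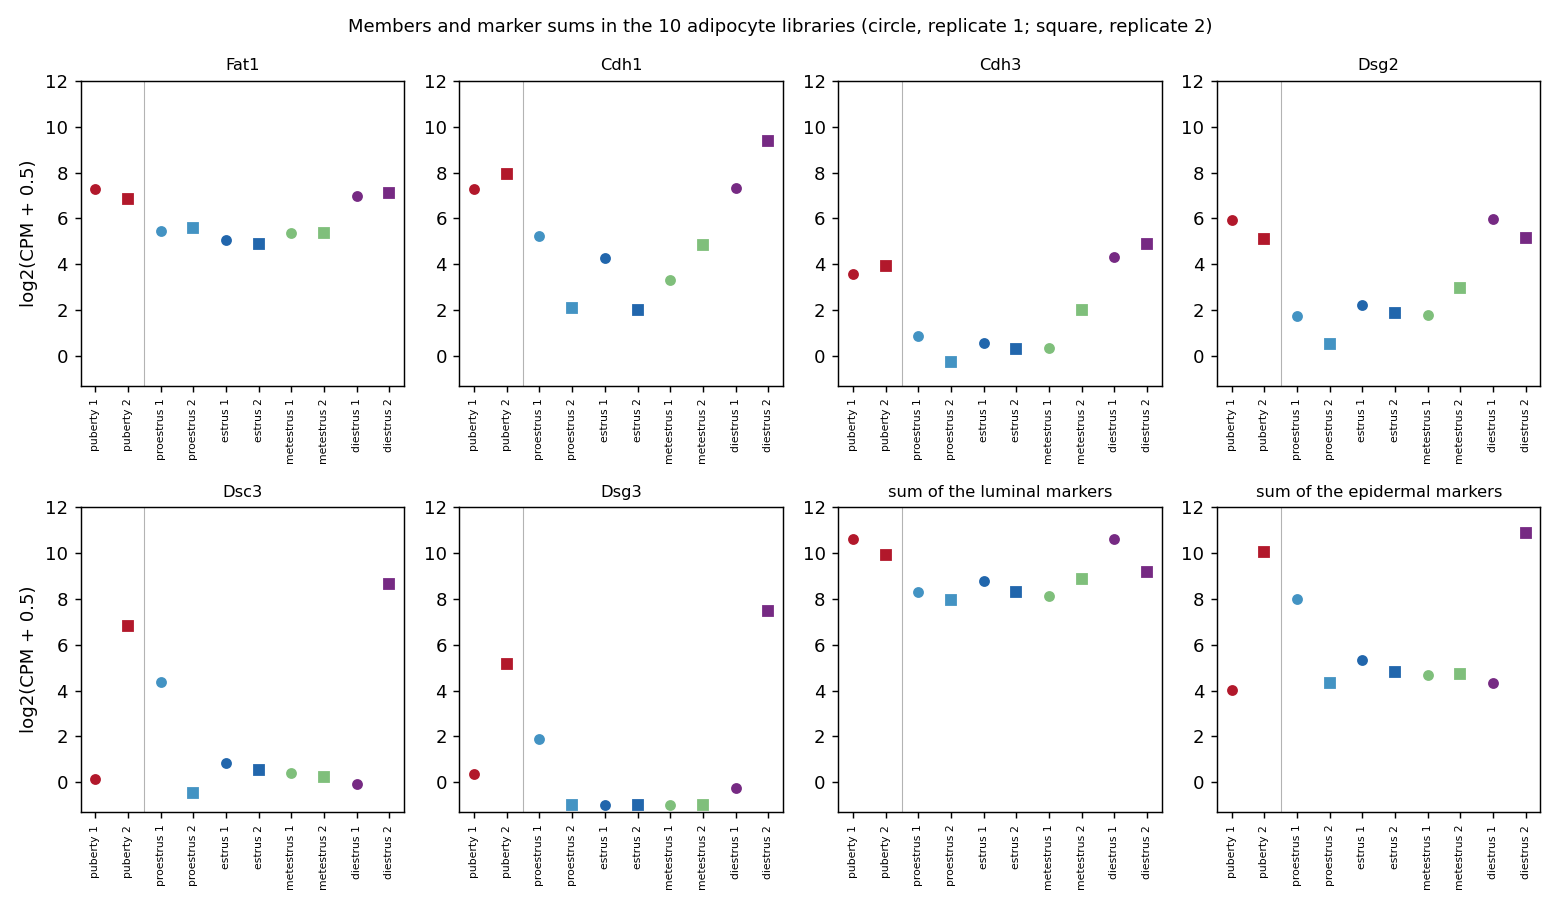
Levels of Fat1, Cdh1, Cdh3, Dsg2, Dsc3 and Dsg3 and the sums of the luminal and the epidermal markers, as log2(CPM + 0.5), in the 10 adipocyte libraries (circle, replicate 1, and square, replicate 2). Fat1, Cdh1, Cdh3 and Dsg2 are high in both diestrus and both pubertal libraries, whereas Dsc3, Dsg3 and the epidermal sum are high in replicate 2 of both and, less so, in proestrus replicate 1.

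Basal cells held the largest number of members called between puberty and the adult stages. Of 25 members tested, 12 were higher and 6 lower in puberty than in the mean of the 4 adult stages, against 24.8% and 24.5% of all tested genes, with a median log2 fold change of 0.48 over the members and -0.02 over all genes. Cdh2 was at 71.2 and 66.9 CPM in pubertal basal libraries, against 9.44 to 18.8 CPM in the 8 adult libraries, and its log2 fold change was 2.46 (SE 0.17, adjusted p = 4.92e-06). It kept its call in every alternative tried. Dsc3 was at 36.6 and 75.4 CPM in puberty, against 1.35 to 8.89 CPM in adults (log2 fold change 3.97, SE 0.27, adjusted p = 4.2e-06), and Dsg3 at 28.4 and 48.8 CPM, against 3.49 to 13.01 CPM (log2 fold change 2.86, SE 0.29, adjusted p = 3.75e-05). In Cdh2, Dsc3 and Dsg3 both pubertal libraries lay above every adult library.

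Desmoglein 1 copies were nearly absent from adult basal cells. Dsg1a was at 3.12 and 7.08 CPM in puberty, against 0 to 0.10 CPM in adults, and Dsg1b at 1.99 and 6.15 CPM, against 0 to 0.12 CPM. The 8 adult libraries held 3 counts of each gene, and the ratio of puberty over adult was 242 for Dsg1a (95% counting interval 81.6 to 1180) and 193 for Dsg1b (64.9 to 947), which covers counting error only. Their adjusted p-values were 2.36e-05 and 6.66e-05.

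The remaining basal members that were higher in puberty changed less. Cdh6, a type II cadherin, was at 6.34 and 6.10 CPM, against 0.73 to 2.39 CPM (log2 fold change 2.27), Dsc2 at 19.02 and 21.3 CPM, against 3.42 to 9.67 CPM (1.73), and Fat2 at 51.3 and 34.5 CPM, against 11.9 to 21.98 CPM (1.21). Cdh10, Fat1, Dsg2 and Fat4 had log2 fold changes of 1.11, 0.83, 0.72 and 0.49. Cdh1 and Cdh3 fell, with Cdh1 at 470.6 and 525.9 CPM in puberty, against 671.0 to 1049 CPM in adults, and Cdh3 at 309.3 and 261.3 CPM, against 344.3 to 606.8 CPM. Their log2 fold changes were -0.76 (SE 0.17, adjusted p = 0.00376) and -0.66 (SE 0.14, adjusted p = 0.00297), and no pubertal library reached the lowest adult one. Pcdh1 fell to 8.38 and 6.67 CPM, against 18.3 to 29.3 CPM (log2 fold change -1.56, SE 0.18, adjusted p = 8.76e-05), and Cdh23, Fat3 and Cdh17 had log2 fold changes of -1.33, -1.26 and -1.23.

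Epidermal genes were higher in the same pubertal basal libraries. All 5 epidermal markers tested rose, with a median log2 fold change of 6.81, and their summed level was 122.2 and 232.2 CPM in puberty, against 3.80 to 7.08 CPM in adults, where Calm4 and Krt2 were at 0 in all 8 libraries. Of the higher members with pubertal values given above, Dsc3, Dsg3, Dsg1a, Dsg1b and Dsc2 were higher in the library of the higher sum. Cdh2, Cdh6 and Fat2 were higher in the other, Cdh6 only slightly. An order of 2 libraries cannot tell whether levels go together, and nothing is drawn from it. Of the 8 basal markers none rose and 2 fell. Summed luminal markers were at 1307 and 1716 CPM in pubertal basal libraries, against 2311 to 2995 CPM in adults, with 4 of 9 tested markers higher and 3 lower. The part of epidermal and luminal cells was not tested. The number of members called, 18, was 11 without pubertal replicate 1 and 11 without pubertal replicate 2.

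**Figure D4:**
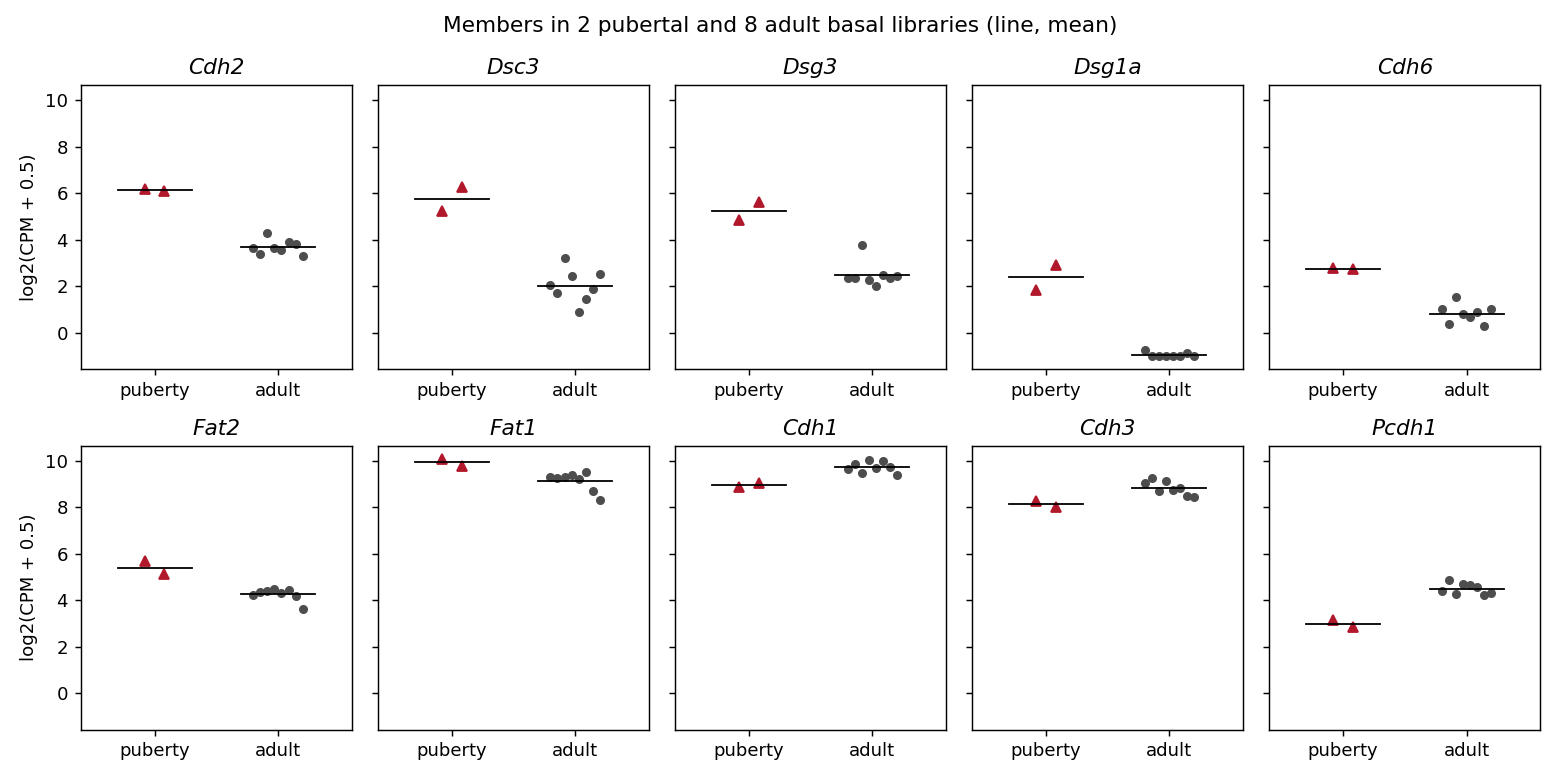
Levels of 10 members as log2(CPM + 0.5) in the 2 pubertal (triangles) and 8 adult (circles) basal libraries, with lines at the means. Cdh2, Dsc3, Dsg3, Dsg1a, Cdh6, Fat2 and Fat1 are higher in both pubertal libraries than in any adult library, and Cdh1, Cdh3 and Pcdh1 are lower in both.

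Luminal cells had few members called between puberty and the adult stages. Of 18 members tested 1 was higher and 1 lower in puberty, against 6.55% and 4.20% of all tested genes. Fat3 was at 4.21 and 0.92 CPM in pubertal luminal libraries, against 0 to 1.04 CPM in adults, so that the lower pubertal library lay within the adult range. Both diestrus libraries were at 0, so its fitted fold change depends on the prior count and is not given (adjusted p = 0.0067). Cdh13 was at 7.59 and 8.05 CPM in puberty, against 7.87 to 70.5 CPM in adults (log2 fold change -1.77, SE 0.43, adjusted p = 0.0307), which is the level of the estrus libraries.

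The 2 pubertal luminal libraries differed from each other in several members. Dsg2 was at 413.5 and 200.8 CPM in replicates 1 and 2 and Fat1 at 571.1 and 185.4 CPM, while the summed luminal markers were at 16970 and 33339 CPM and no adult luminal library was above 23799 CPM. Without replicate 1, 9 members were called in luminal cells, without diestrus replicate 1 it was 4, without proestrus replicate 1, either metestrus library or estrus replicate 2 it was 1, and without estrus replicate 1 it was 0.

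The difference between luminal and basal cells itself changed with age in 9 of 27 members. The signed log2 difference, luminal minus basal, was higher in puberty than in adults for 2 members and lower for 7, against 11.1% and 11.9% of all tested genes, and the median was -1.08 over the members and -0.03 over all genes. Pcdh1 had a change of 1.24 (SE 0.21, adjusted p = 0.00105), with 96.8 and 80.5 CPM in pubertal luminal libraries against 8.38 and 6.67 CPM in pubertal basal libraries. Fat3, with 4.21 and 0.92 CPM in pubertal luminal libraries against 2.35 and 1.81 CPM in pubertal basal libraries, was the other (adjusted p = 0.000622), under the same limit on its luminal counts. In puberty Fat4 was at 1.001 and 0.38 CPM in luminal libraries, against 34.4 and 29.2 CPM in basal libraries, Cdh13 at 7.59 and 8.05 CPM, against 62.98 and 62.6 CPM, and Dsc2 at 116.9 and 81.7 CPM, against 19.02 and 21.3 CPM. Cdh2 had -3.55 (SE 0.94, adjusted p = 0.0157), Fat2 -2.12, Cdh13 -1.73 (adjusted p = 0.0121), Fat4 -1.55 (adjusted p = 0.0114), Dsc2 -1.21 (adjusted p = 0.014) and Dsg2 -1.08. Pcdh12 had -1.97 at an adjusted p of 0.0498, which passed in 8 of 25 alternative settings. Without luminal puberty replicate 2 the number of members called was 2, and without basal puberty replicate 1 it was 5.

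Pubertal adipocytes had higher levels of several epithelial cadherins. Of 30 members tested 6 were higher and none lower than in the adult stages, against 6.10% and 6.21% of all tested genes. Fat1 was at 155.4 and 114.1 CPM, against 29.4 to 137.8 CPM in adults (log2 fold change 1.33, SE 0.13, adjusted p = 0.00907), and Dsg2 at 60.7 and 34.3 CPM, against 0.95 to 62.5 CPM (log2 fold change 2.85, SE 0.41, adjusted p = 0.017). Both ranges overlapped through the adult diestrus libraries. Pcdh18 was at 26.1 and 18.8 CPM, against 8.11 to 13.4 CPM, without overlap (log2 fold change 1.07, SE 0.205, adjusted p = 0.0271).

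Cdh3 was at 11.4 and 14.8 CPM in pubertal adipocytes, against 0.34 to 28.9 CPM in adults, and Dsc2 at 9.42 and 20.9 CPM, against 0.25 to 27.1 CPM, and both overlapped the adult diestrus libraries. Cdh3, Dsc2 and Cdh6 were the other calls, with log2 fold changes of 2.37, 3.05 and 1.81 and adjusted p-values of 0.0316, 0.0345 and 0.0484. Summed luminal markers were at 1572 and 970.2 CPM in pubertal adipocytes, against 250.8 to 1577 CPM in adults, with 3 of 10 luminal and 2 of 8 basal markers called higher. Summed fibroblast markers were at 9186 and 18275 CPM, against 3348 to 6704 CPM in adults, without overlap, with 3 of 7 called higher. The part of these cell types was not tested. Without the 3 libraries of high epidermal sums, puberty replicate 1 is the sole pubertal library, so the spread comes from adult libraries alone. The log2 fold changes then were 1.565 for Fat1, 3.38 for Dsg2, 1.34 for Pcdh18, 2.58 for Cdh3, 3.09 for Dsc2 and 2.52 for Cdh6. The counts that follow have no share of all tested genes beside them, so they show only how the number depends on the setting. The number called was, with the replicate number as a block 2, without puberty replicate 1 none, and without proestrus replicate 1, proestrus replicate 2, either estrus library or metestrus replicate 1 it was 1 or 2.

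Fibroblasts had 4 members higher and none lower in puberty of 31 tested, against 12.5% and 6.40% of all tested genes. Cdh11 was at 222.6 and 262.4 CPM, against 82.7 to 250.0 CPM in adults (log2 fold change 0.88, SE 0.17, adjusted p = 0.00963), with the ranges overlapping at metestrus replicate 2. Cdh19 was at 16.5 and 9.83 CPM, against 1.28 to 8.92 CPM (log2 fold change 1.63, SE 0.32, adjusted p = 0.0108), and Cdh6 at 25.2 and 15.2 CPM, against 6.25 to 13.8 CPM (log2 fold change 1.09, SE 0.30, adjusted p = 0.0331). Both were above every adult library. Pcdh17 was at 22.1 and 46.9 CPM, against 3.58 to 34.3 CPM (log2 fold change 1.80, SE 0.53, adjusted p = 0.0425). Summed fibroblast markers were at 110050 and 79080 CPM in pubertal fibroblasts, against 18271 to 48295 CPM in adults. Of the markers, 4 of 7 fibroblast and 4 of 8 basal ones were called higher, and their part was not tested. The counts that follow have no share of all tested genes beside them, so they show only how the number depends on the setting. The number of members called was 0 without puberty replicate 2, 1 without puberty replicate 1, 2 without either metestrus library, 7 without diestrus replicate 2, and 10 without the 2 adult libraries of highest Dsg2.

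Dsg2 varied widely between fibroblast libraries. It was at 70.3 and 177.6 CPM in puberty, 17.3 and 140.8 CPM in proestrus, 19.4 and 52.6 CPM in estrus, 25.9 and 3.95 CPM in metestrus, and 40.1 and 271.1 CPM in diestrus. The 2 pools of proestrus and the 2 pools of diestrus lay far apart, the stages overlapped, and no stage or age was called. The summed luminal markers were also lowest in metestrus replicate 2, at 77.4 CPM, and highest in diestrus replicate 2, at 394.4 CPM, but at 128.3 CPM in proestrus replicate 2, against 133.0 CPM in proestrus replicate 1. The part of luminal cells in the Dsg2 level was not tested.

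After its values were seen, Dsg2 was compared with the other genes of a set of 310 that includes it. Genes in this set had a mean of at least 5 CPM and a log2 SD of at least 1 over the 10 fibroblast libraries. The closest profiles by Pearson's r of log2(CPM + 0.5) were those of Samsn1 (0.981), Pde1c (0.981), Hdac9 (0.979) and Fut7 (0.972), followed further down by Chst4 (0.958), Gcnt1 (0.954), Glycam1 (0.938) and the member Pcdh17 (0.932). These are descriptions over 10 libraries that share depth and pools. Fut7, Chst4 and Gcnt1 encode enzymes, and Glycam1 a carrier protein, of the L-selectin ligands of high endothelial venules, the vessels through which lymphocytes enter lymph nodes. These genes were picked after their ranks were seen, and other genes ranked between them, among them Pglyrp1 (0.966), Ubd (0.964) and Lcp1 (0.960). Fut7 was at 38.3 CPM in diestrus replicate 2 and 0.66 CPM in metestrus replicate 2, the libraries of highest and lowest Dsg2. Per the methods the lymph node of the 4th gland was taken out before digestion, and the part of lymph node vessels in the Dsg2 level was not tested.

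Other members were high in the same fibroblast libraries. Dsc3 was at 51.9 CPM in diestrus replicate 2 and 13.6 CPM in proestrus replicate 2, and at most 0.29 CPM in the other 6 adult libraries. Pcdh15 was at 25.9 and 8.04 CPM in these 2 libraries and at most 1.12 CPM in the other adult libraries, and Cdh4 at 12.6 and 5.92 CPM, against 1.24 to 4.16 CPM in the other adult libraries. Cdh5 had its highest level in another library, estrus replicate 2, at 668.0 CPM. Genes of that set that are not members also peaked in diestrus replicate 2, with Tyrp1 at 701.4 CPM, Pmel at 601.6 CPM and Trpm1 at 338.8 CPM. Their r with Dsg2 was 0.554, 0.55 and 0.573. In the other adult fibroblast libraries they reached at most 1.46, 2.22 and 0.16 CPM. The part of other cell types in this library was not tested.

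**Figure D5:**
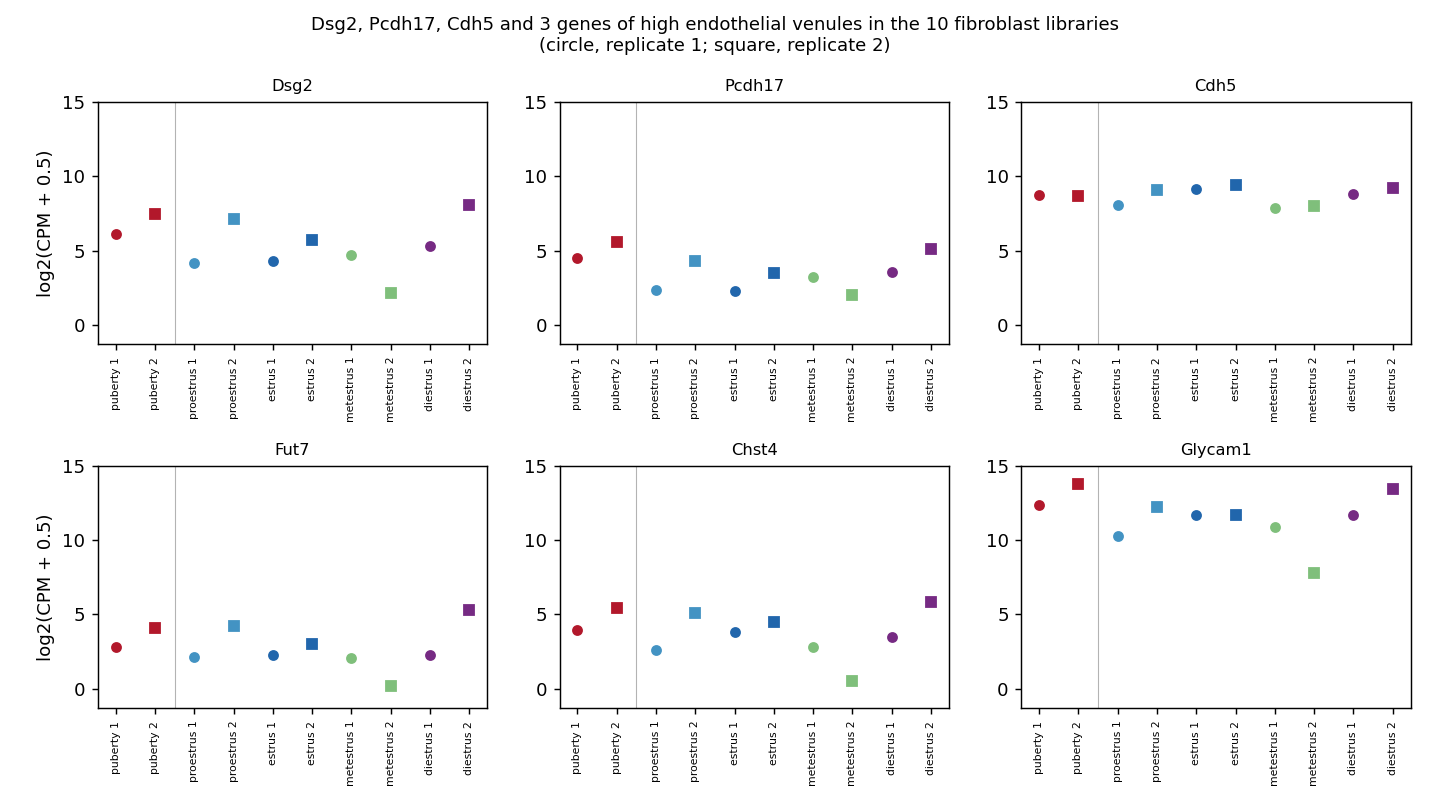
Levels of the members Dsg2, Pcdh17 and Cdh5 and of Fut7, Chst4 and Glycam1, genes known from high endothelial venules, as log2(CPM + 0.5) in the 10 fibroblast libraries (circle, replicate 1, and square, replicate 2). Dsg2, Pcdh17, Fut7 and Chst4 share their low point in metestrus replicate 2 and a high level in diestrus replicate 2, while Cdh5 is flatter.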

How the data were processed

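RNA was sequenced from 40 libraries of 4 mouse mammary cell types (polyA-selected, stranded, single-end). Per the submitters' processing notes and the paper's methods, the authors aligned reads to GRCm38 (TopHat2 2.1 and Bowtie 1.1.0) and deposited raw HTSeq counts per gene, in an adult table of 25044 genes and a pubertal table of 24268 genes; the HTSeq strand setting is not given in the sources used here. Symbols, coordinates and exon lengths came from the GENCODE annotation of GRCm38, and 0 columns belonged to no sample. The members and gene lists were chosen with earlier results of these data known.

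Counts were tested with edgeR 4.0.16 in R 4.3.3 (quasi-likelihood F-test, TMM factors, genes above 1 CPM in at least 2 libraries, Benjamini-Hochberg adjusted p under 0.05 over all genes tested). The fits held the 32 adult libraries, the 8 pubertal libraries, the 8 adult libraries of a cell type, its 10 libraries with puberty, and the 20 luminal and basal libraries with an interaction term. CPM and RPKM values used TMM factors shared by all 40 libraries, also across the 2 tables, which came from different runs. Every member is named, and per-library values are given for the 5 members of highest RPKM in each adult cell type, the 4 of largest log2 fold change among those called higher there at a mean of at least 1 CPM, each member called between stages, and the 5 called members of smallest adjusted p in each comparison with puberty. Of each list of junction genes the 4 of smallest adjusted p in adult luminal against basal cells are named. Other genes were chosen after their values were seen where the text says so. Alternatives were DESeq2 1.42.0, its size factors in edgeR, no filter, the newer quasi-likelihood method, a replicate block, stage left out of the model, a joint adult fit and each library left out. Total counts were 8991222 to 22760563 per library, so 3 counts corresponded to between 0.108 and 0.481 CPM. The scripts were tested on simulated data.

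Replicate numbers name the same mouse pool across cell types, except in pubertal adipocytes, and different mice across stages. Deviations of libraries of the same adult pool had correlations of -0.06 to 0.28 (24 pairs, 9 over 0.1), those of the same pubertal number 0.07 to 0.24 (6 pairs), and those of the same number in different stages -0.67 to 0.42.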

Additional observations from a re-analysis of the deposited data

Results flagged for a closer look

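Single libraries stood apart from the other 7 adult libraries of their cell type in 7 of 29 checks of a member in a cell type. The nominal level of the check is about 1 in 20, but the number cannot be set against it. Members were chosen by highest RPKM or largest fold change in that cell type, which a single high library can raise, and the checks share libraries. In adult basal cells these were Pcdh18 at 137.3 CPM in metestrus replicate 2, Dsg3 at 13.01 CPM in estrus replicate 1 and Fat2 at 11.86 CPM in diestrus replicate 2. In adult adipocytes they were Cdh1 at 675.5 CPM and Dsc3 at 398 CPM, both in diestrus replicate 2. In adult fibroblasts they were Cdh8 at 6.381 CPM and Pcdh15 at 25.94 CPM, both in diestrus replicate 2.

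The luminal minus basal difference changed between puberty and the adult stages in 9 members by the interaction test of edgeR. On the log2 scale the change was 1.24 for Pcdh1, -1.08 for Dsg2, -1.21 for Dsc2, -1.55 for Fat4, -1.73 for Cdh13, -1.97 for Pcdh12, -2.12 for Fat2 and -3.55 for Cdh2. For Fat3 it was 6.91, a value that depends on the prior count, since luminal libraries of whole stages were at 0.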

How the results depend on the processing

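Numbers of members called across the cycle depended on the tool and the filter, in any stage against the others and in any pair of stages. The shares of all tested genes called under the alternatives are not given here. The numbers below therefore show only how the count of members depends on the setting. DESeq2 gave 3 and 2 (luminal), 3 and 6 (basal), 14 and 13 (adipocytes) and 11 and 15 (fibroblasts). Without a filter there were 12 and 10 (luminal), 6 and 8 (basal), 3 in pairs (adipocytes) and 24 and 23 (fibroblasts). A joint adult fit gave 2 in luminal and 1 in basal cells for any stage, 14 and 14 in adipocytes, and 9 and 8 in fibroblasts. With the replicate block adipocytes had 1 and 0, and 2 between puberty and adults. Between puberty and adults no filter gave 7 in luminal cells and 12 in fibroblasts. In alternatives chosen after seeing the data, leaving out the 3 adipocyte libraries of high epidermal sums gave 5 and 3 in the cycle and 15 for puberty, and leaving out the 2 fibroblast libraries of highest Dsg2 gave 10 for puberty.

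With each library left out in turn, counts ranged over 24 to 26 (adult luminal), 26 to 29 (basal), 24 to 26 (adipocytes), 29 to 31 (fibroblasts) and 26 to 31 (luminal against basal), and in puberty over 18 to 30, 11 to 25, 12 to 15, 18 to 30 and 13 to 27. For stages they were 0 to 0 in luminal cells (pairs 0 to 1), 0 to 2 in basal cells (pairs 0 to 2), 0 to 12 in adipocytes (pairs 0 to 12) and 0 to 1 in fibroblasts (pairs 0 to 3). For puberty against adults they were 0 to 9, 11 to 19, 0 to 8 and 0 to 7, and 2 to 10 for the interaction. Directions reversed for Fat2 in adult adipocytes with stage not in the model (0.75), for Dsc3 in adult adipocytes without the 3 libraries (-0.61), and for Dsg3 (-1.55), Dsg1b (-6.75) and Dsg1a (-2.16) in pubertal adipocytes without puberty replicate 2 or without the 3 libraries. The value of Dsg1b depends on the prior count, since the remaining library was at 0. Without puberty replicate 1 these 3 were at 3.94, 4.68 and 5.82. The causes were not tested.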
